A study of Mus musculus with 12 samples.

Results

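Tmie, Chd7, Rflnb, Mn1, Als2cl and Cpm are 6 genes whose signal was lower in single-positive thymocytes of mice that carried a T cell receptor together with its antigen than in those of mice that carried the receptor alone. They were selected on that difference, so their values in single-positive cells are given as a description and support no test. They are 6 of 9607 genes that the array annotation names alone on a probe set, and 6 of the 6663 such genes that remained after a filter on low signal. The array holds 10 probe sets for them, of which 8 passed the filter, at least 1 for each gene.

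RNA was measured on 12 one-colour Affymetrix arrays, 3 for each of 4 groups of sorted thymocytes. All mice were B10, untreated and 6 to 8 weeks old, and all carried a transgenic T cell receptor. The TCR groups carried the receptor only and the TCR:HEL groups carried the HEL antigen as well, and each kind of mouse gave CD4 single-positive cells and pre-selection double-positive cells. The labels describe TCR single-positive cells as positively selected and TCR:HEL single-positive cells as negatively selected. They give no promoter for either transgene, and they call the arrays of a group biological replicates without stating whether each came from its own animal. Groups follow the sample titles, because the design text calls the mice without antigen B10 and does not mention their receptor.

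In the thymus, double-positive cells carry both coreceptors and test a newly made receptor against self peptides. A weak signal lets a cell live on and become single-positive, which is positive selection, and a strong signal from a self antigen leads to its death or to another fate, which is negative selection. Single-positive cells that survive mature further, gain genes for migration and leave for the blood. The 6 genes have no common pathway. Tmie encodes a membrane protein of the mechanotransduction channel of hair cells in the inner ear. Als2cl encodes a relative of alsin, a protein that activates the endosomal GTPase Rab5. Chd7 encodes an ATP-driven chromatin remodeller that is mutated in human CHARGE syndrome, and Mn1 encodes a transcriptional coregulator first found at a translocation in meningioma. Rflnb encodes refilin B, which binds filamin and so shapes bundles of actin. Cpm encodes a carboxypeptidase anchored at the cell surface that removes C-terminal arginine or lysine from peptides such as kinins.

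Promoter windows were found for 4 of the 6 genes and not for Chd7 or Mn1. They are shown because those of Tmie and Als2cl overlap. These genes are next to each other on mouse chromosome 9, head to head, on opposite strands. The annotation places Chd7 on chromosome 4, Mn1 on chromosome 5, Cpm on chromosome 10 and Rflnb on chromosome 11. The windows run from 250 bases before to 50 bases after an annotated start and come from RefSeq (GRCm38.p6), each read 5′ to 3′ on the strand of its gene. Capitals mark the GC box, GGGCGG or its complement CCGCCC, the letters that the factor Sp1 is known to bind. The windows are chr9:110880024-110880323 on the minus strand for Tmie, chr9:110879924-110880223 on the plus strand for the first Als2cl start, chr11:76027733-76028032 on the minus strand for Rflnb and chr10:117629250-117629549 on the plus strand for Cpm.
Tmie: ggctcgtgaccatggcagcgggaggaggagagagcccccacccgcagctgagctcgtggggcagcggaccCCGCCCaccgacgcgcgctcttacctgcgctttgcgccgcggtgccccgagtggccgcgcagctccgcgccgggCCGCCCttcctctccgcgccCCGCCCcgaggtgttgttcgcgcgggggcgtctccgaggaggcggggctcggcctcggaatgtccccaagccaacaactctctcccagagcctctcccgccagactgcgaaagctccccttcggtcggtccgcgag
Als2cl: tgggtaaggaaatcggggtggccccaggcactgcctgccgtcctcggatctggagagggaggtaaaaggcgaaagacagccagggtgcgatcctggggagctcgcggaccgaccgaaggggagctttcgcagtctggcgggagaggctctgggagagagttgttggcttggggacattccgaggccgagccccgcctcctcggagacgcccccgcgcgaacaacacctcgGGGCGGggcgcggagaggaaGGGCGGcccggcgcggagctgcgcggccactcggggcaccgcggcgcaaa
Rflnb: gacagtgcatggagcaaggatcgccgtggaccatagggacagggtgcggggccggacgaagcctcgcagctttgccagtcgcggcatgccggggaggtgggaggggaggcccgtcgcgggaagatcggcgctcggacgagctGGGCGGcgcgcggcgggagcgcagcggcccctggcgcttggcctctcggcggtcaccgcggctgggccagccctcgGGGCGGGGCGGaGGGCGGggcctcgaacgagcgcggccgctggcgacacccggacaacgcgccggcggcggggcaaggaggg
Cpm: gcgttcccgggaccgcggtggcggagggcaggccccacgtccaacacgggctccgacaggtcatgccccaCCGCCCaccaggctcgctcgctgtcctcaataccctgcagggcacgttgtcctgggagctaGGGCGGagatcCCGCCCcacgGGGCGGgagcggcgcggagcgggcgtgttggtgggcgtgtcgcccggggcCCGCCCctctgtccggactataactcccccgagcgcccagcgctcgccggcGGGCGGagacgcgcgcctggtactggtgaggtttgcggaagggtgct

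The annotated start of Tmie lay 101 bases from the first start of Als2cl and 249 bases from its second start, and the Tmie window shared 200 bases with the first Als2cl window and 252 with the second. Of 13453 minus-strand genes with a window, 1277 (9.49%) had a plus-strand start within 300 bases upstream. All printed windows were rich in G and C. Their G and C content was 73.7% for Tmie, 70.0% for Als2cl, 77.0% for Rflnb and 73.7% for Cpm, where the median of 32851 windows was 52.7%. The CG dinucleotide occurred 39 times in the Tmie window, 33 times in that of Als2cl, 44 times in that of Rflnb and 37 times in that of Cpm, against a median of 7. The GC box occurred 3 times in the Tmie window, 2 times in the first Als2cl window, 4 times in the Rflnb window and 6 times in the Cpm window, and 35.7% of all windows held at least 1. Because the windows of Tmie and Als2cl overlap, 2 of the Tmie boxes are the 2 boxes of Als2cl read from the other strand.

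Letters that factors of T cell development are known to bind were searched on both strands of the same windows, so Chd7 and Mn1 were not searched. The RUNX letters TGTGGT, the TCF/LEF letters CTTTGA, the FOXO letters GTAAACA, the AP-1 letters TGANTCA, the GATA letters AGATAA and the ETS letters CCGGAA occurred in none of the windows of these 4 genes. Over all windows they occurred in 16.8%, 16%, 3.65%, 7.81%, 11.2% and 14.9%. The E-box CANNTG (72.3% of all windows) occurred once in the Tmie window and once in the second Als2cl window, the same site on the other strand. The NFAT letters GGAAA occurred once in the first Als2cl window (61.3%). These are matches of letters and say nothing of whether a factor binds. Windows were taken only at annotated starts, and which start thymocytes use was not examined.

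Signals are the deposited MAS5 values, which are linear intensities scaled to the same trimmed mean on every array. Median signals of the arrays lay between 62.9 and 81.3, which gives a scale for the values below. The ratio of the 5' to the 3' Gapdh signal, which falls when RNA is degraded, was 0.0379 on TCR and 0.0856 on TCR:HEL single-positive replicate 1 and 0.107 on TCR double-positive replicate 1, against 0.195 to 0.453 on the other arrays. Fold changes are differences of log2(signal + 16), a scale that understates the change of weak genes, and come with the standard error (SE) of a limma fit to all arrays. A gene was called where the p-value adjusted over all 13703 probe sets kept was under 0.05. In bulk RNA, fewer cells that express a gene and less of its RNA in each cell cannot be told apart.

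All 6 genes had their highest signal in TCR single-positive cells, and for each of them the 3 TCR single-positive arrays stood above all other 9. The same was true of 189 of the 13703 probe sets (1.38%), and it is in part fixed by how the genes were chosen. In TCR:HEL single-positive cells the signals lay at or near those of double-positive cells. The ratio of mean signals between TCR and TCR:HEL single-positive cells ran from 2.87 for Cpm to 9.44 for Tmie.

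**Figure D1:**
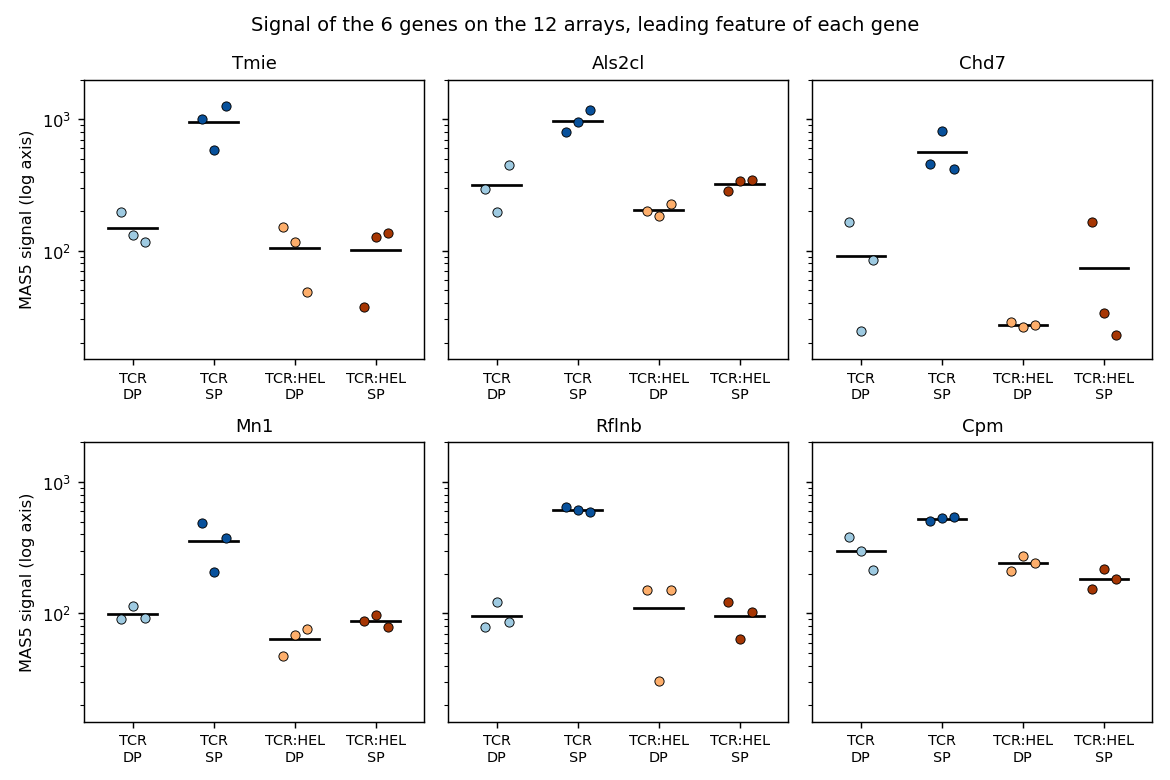
Signal of the 6 genes on the 12 arrays, on a log axis of MAS5 signal, with 1 panel per gene for its leading probe set, 1 point per array and a bar at the mean of each group of 3. In every panel the 3 TCR single-positive (SP) points lie above the other 9, and TCR:HEL single-positive points lie near the level of the double-positive (DP) groups.

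Tmie gave signals of 1007, 585 and 1261 on the 3 TCR single-positive arrays and 37.3, 128 and 137 on the TCR:HEL single-positive arrays. In double-positive cells it gave 196, 133 and 116 in TCR and 153, 116 and 48.5 in TCR:HEL mice. The lowest TCR single-positive array thus stood well above the highest of the others, and the 3 remaining groups overlapped one another. Group means were 951 ± 341, 101 ± 55.1, 148 ± 42.1 and 106 ± 52.8 in the same order (SD, n = 3 arrays each). The log2 fold change between the single-positive groups was -3.13 (SE 0.45), the lowest of the 13703 probe sets.

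Als2cl, the gene that faces Tmie head to head, gave 795, 957 and 1174 in TCR and 286, 337 and 348 in TCR:HEL single-positive cells. In double-positive cells it gave 294, 196 and 452 in TCR and 201, 185 and 227 in TCR:HEL mice. Here the TCR:HEL single-positive arrays were all above the TCR:HEL double-positive arrays, and the TCR double-positive arrays overlapped both. Means were 975 ± 190 and 324 ± 32.8 in the single-positive groups and 314 ± 129 and 204 ± 21.1 in the double-positive groups (SD, n = 3). The log2 fold change between the single-positive groups was -1.53 (SE 0.29), against -3.13 for Tmie, and over the 12 arrays the profiles of the pair correlated at r = 0.838.

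The chromatin and transcription genes were also highest in TCR single-positive cells. Chd7 gave 458, 813 and 422 in TCR and 164, 33.4 and 22.7 in TCR:HEL single-positive cells. Its double-positive signals were 164, 24.7 and 84.6 in TCR and 28.5, 26.3 and 27.01 in TCR:HEL mice. The values of Chd7 outside TCR single-positive cells were thus mostly below the arrays' medians, with 164 on 1 TCR:HEL single-positive and 1 TCR double-positive array as the highest. Means were 564 ± 216, 73.5 ± 78.9, 91.1 ± 69.9 and 27.3 ± 1.15 (SD, n = 3), for TCR and TCR:HEL single-positive and TCR and TCR:HEL double-positive cells. The log2 fold change of Chd7 between the single-positive groups was -2.99 (SE 0.56), with the largest SE of the 6 genes.

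Mn1 gave 489, 205 and 376 in TCR and 87.1, 96.8 and 79.3 in TCR:HEL single-positive cells. Its double-positive signals were 90.9, 113 and 91.9 in TCR and 47.6, 68.5 and 76.4 in TCR:HEL mice. TCR replicate 2 was the lowest of the TCR single-positive arrays for Mn1, and for Tmie as well, and the highest for Chd7. The TCR:HEL double-positive arrays were the lowest group for Mn1, narrowly below all arrays of the other groups (76.4 against 79.3). The share of all probe sets with such a gap was not counted, so it is no trait of Mn1. The TCR:HEL single-positive and TCR double-positive arrays overlapped. Means were 357 ± 143, 87.7 ± 8.76, 98.7 ± 12.7 and 64.1 ± 14.9 (SD, n = 3), in the order used for Chd7, and the log2 fold change between the single-positive groups was -1.77 (SE 0.31).

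Rflnb, the refilin gene, gave 650, 609 and 589 in TCR and 122, 63.7 and 102 in TCR:HEL single-positive cells. In double-positive cells it gave 79.1, 122 and 85.9 in TCR and 150, 30.7 and 152 in TCR:HEL mice. The TCR single-positive arrays agreed closely, and the other 3 groups overlapped. Means were 616 ± 30.9, 96.2 ± 29.8, 95.8 ± 23.3 and 111 ± 69.5 (SD, n = 3), in the same order, and the log2 fold change between the single-positive groups was -2.53 (SE 0.42).

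Cpm, the cell-surface carboxypeptidase gene, differed from the other 5 in that its double-positive level lay nearer to its peak. It gave 504, 535 and 543 in TCR and 153, 217 and 183 in TCR:HEL single-positive cells, and 379, 298 and 212 in TCR and 209, 273 and 241 in TCR:HEL double-positive cells. TCR:HEL single-positive cells held the lowest mean, 184 ± 32.04, against 527 ± 20.2 in TCR single-positive, 297 ± 83.5 in TCR double-positive and 241 ± 32.1 in TCR:HEL double-positive cells (SD, n = 3). The ranges of the 3 lower groups overlapped. The log2 fold change of Cpm between the single-positive groups was -1.45 (SE 0.26).

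Limma called 20 probe sets (0.146%) higher and 10 (0.073%) lower in TCR:HEL than in TCR single-positive cells. The 10 were the leading probe sets of the 6 genes, 1 gene with a clone-type name and 3 probe sets without a symbol, so the 6 genes are what the choice left of that list. By size of fold change Tmie, Chd7 and Rflnb ranked 1, 2 and 3 among the 13703 probe sets, Mn1 ranked 14, Als2cl 35 and Cpm 44. Just inside the threshold were Als2cl (adjusted p = 0.0449 in limma), Chd7 (0.0393) and Cpm (0.0308). Just outside were the receptor gene Gpr18 (-1.53, adjusted p = 0.0602 in limma), the lymphocyte GTPase gene Gimap7 (-1.62, 0.0602) and the zinc finger gene Zfp467 (-1.66, 0.0625), with fold changes as large as those of Als2cl and Cpm. These p-values describe the rule that chose the genes and are not evidence for them.

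Single-positive arrays of both kinds of mice shared a hybridization day in 2 cases, and the difference could be read within each. On the day of replicate 1 the log2 differences were -4.26 for Tmie, -1.42 for Als2cl, -1.39 for Chd7, -2.29 for Mn1, -2.27 for Rflnb and -1.63 for Cpm. On the day of replicate 3 they were -3.06, -1.71, -3.50, -2.04, -2.35 and -1.49 in the same order. All 6 genes were lower in TCR:HEL cells in both pairs, which are part of the arrays that chose them, and Chd7 varied most between the pairs. Without the arrays of replicate 1, whose Gapdh ratios were low, Tmie had -2.56, Als2cl -1.59, Chd7 -3.78, Mn1 -1.51, Rflnb -2.66 and Cpm -1.37. With the hybridization period as a term in the fit the values were -3.13 for Tmie, -1.60 for Als2cl, -2.76 for Chd7, -1.97 for Mn1, -2.67 for Rflnb and -1.47 for Cpm.

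Probe sets of the same gene agreed for Cpm and in part for Tmie, and disagreed for Rflnb. The leading probe set of Cpm was 1429413_at. Its other probe set, 1453009_at, gave 191, 335 and 261 in TCR and 83.1, 150 and 103 in TCR:HEL single-positive cells, a log2 fold change of -1.12. In double-positive cells it gave 186, 47.3 and 151 in TCR and 104, 70.7 and 87.0 in TCR:HEL mice, so TCR single-positive cells were again the highest group.

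The leading probe set of Tmie was 1441926_x_at, a name ending that Affymetrix gives to probe sets whose probes may bind other transcripts. The probe set 1443964_at gave 101, 46.0 and 290 in TCR single-positive cells and 5.98 to 12.7 on all other 9 arrays, the same pattern at a low level. It was above its array's median on 2 arrays and so failed the filter. The probe set 1439838_a_at gave 17.0 to 21.2 in TCR and 23.2 to 43.9 in TCR:HEL single-positive cells, was below the median on all arrays, and did not show the pattern.

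The 2 probe sets of Rflnb were designed from the same database sequence and went opposite ways. Where the leading one, 1429764_at, fell, 1429765_at gave 69.2, 77.5 and 31.8 in TCR and 133, 151 and 34.2 in TCR:HEL single-positive cells. In double-positive cells it gave 177, 146 and 151 in TCR and 34.3, 159 and 190 in TCR:HEL mice. Its single-positive arrays overlapped, with a log2 fold change of 0.57, and TCR single-positive cells were its lowest group. The value of Rflnb therefore rests on 1 of 2 probe sets, and with the mean of both its log2 fold change was -0.98. Als2cl (1433769_at), Chd7 (1437745_at) and Mn1 (1454867_at) had 1 probe set each.

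**Figure D2:**
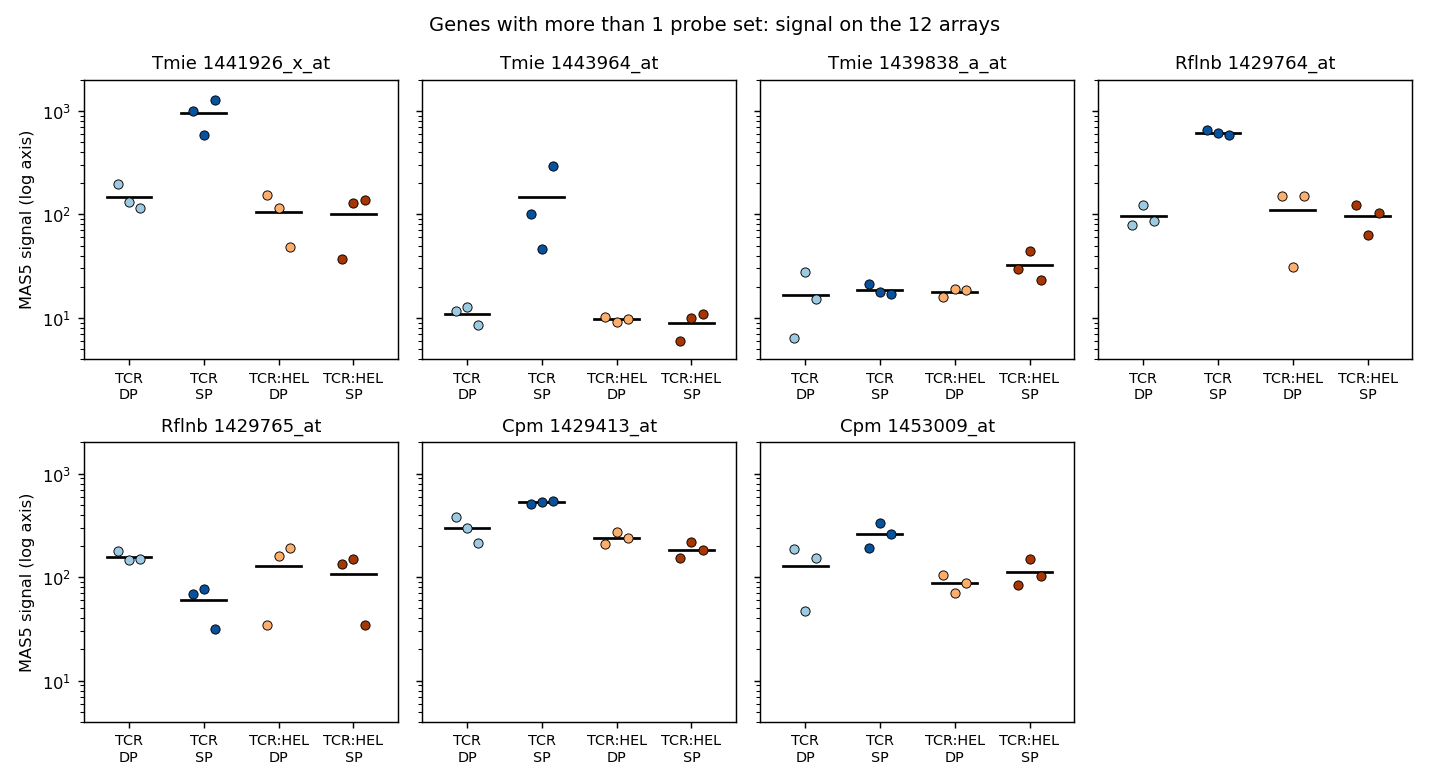
Signal of each probe set of Tmie, Rflnb and Cpm on the 12 arrays, on a log axis of MAS5 signal, with 1 point per array and a bar at the mean of each group of 3. Both Cpm probe sets and 2 of the 3 Tmie probe sets are highest in TCR single-positive cells, and the Rflnb probe sets run opposite ways.

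The difference between the double-positive groups played no part in the choice of the genes, although the spread of these arrays entered the SE behind the choice. It was tested to ask whether the genes already differed with antigen before the single-positive stage. None of the 6 was called, in this fit or in one of the double-positive arrays alone. Tmie had a log2 fold change of -0.51 (95% interval -1.46 to 0.44, limma adjusted p = 0.9998), Als2cl -0.51 (-1.14 to 0.11), Chd7 -1.06 (-2.25 to 0.13), Mn1 -0.53 (-1.19 to 0.14), Rflnb -0.01 (-0.90 to 0.87) and Cpm -0.25 (-0.81 to 0.31), all with the same adjusted p. Their unadjusted p-values were 0.271, 0.0993, 0.0775, 0.111, 0.973 and 0.349, none under 0.05, a level that 339 of all 13703 probe sets reached. Limma called 0 of 13703 lower (0%).

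All 6 fold changes in double-positive cells were negative, with a median of -0.51 against 0.02 over all probe sets kept. The lower ends of the intervals, from -0.81 for Cpm to -2.25 for Chd7, are the largest falls that the 3 arrays per group still allow at that level. In Mn1 alone the 3 TCR:HEL double-positive arrays were all below the 3 TCR arrays, as they were in 537 of 13703 probe sets (3.92%). Within the hybridization period that held 3 TCR and 2 TCR:HEL double-positive arrays the differences were -0.11 for Tmie, -0.59 for Als2cl, -1.06 for Chd7, -0.64 for Mn1, -0.32 for Rflnb and -0.26 for Cpm. On the 1 day shared by both groups they were -0.17, -0.08, 0.06, -0.62, -1.57 and -0.12. That pair of arrays put Rflnb lowest and Chd7 near 0, so single arrays weigh heavily in these values.

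The change of stage was taken as the mean of both single-positive groups minus the mean of both double-positive groups. It uses the single-positive arrays and the residual spread that chose the genes, so it is a description and supports nothing about them. Als2cl had 1.13 (SE 0.21), Mn1 1.01 (SE 0.22), Rflnb 1.26 (SE 0.29), Chd7 1.66 (SE 0.40), Tmie 1.21 (SE 0.32) and Cpm 0.23 (SE 0.19). Limma's threshold was passed by 5 of the 6, all but Cpm. Over all probe sets kept 418 (3.05%) were called higher and 564 (4.12%) lower, and the median was 0.05 against 1.17 for the 6 genes. The other probe set of Rflnb had -0.72 and that of Cpm 0.68, neither called.

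Stage and hybridization largely coincided, since 5 of 6 double-positive arrays but only 1 of 6 single-positive arrays, TCR replicate 2, were hybridized in the second of 3 periods. With the period as a term, Als2cl (1.12) alone kept its call, and Tmie had 1.41, Chd7 1.78, Mn1 0.52 and Rflnb 0.91. Within that period the TCR single-positive array lay above the mean of the 5 double-positive arrays by 1.95 for Tmie, 1.87 for Als2cl, 3.62 for Chd7, 1.21 for Mn1, 2.63 for Rflnb and 0.96 for Cpm, with no replicate check. Within the third period the 2 TCR:HEL single-positive arrays differed from the 1 TCR:HEL double-positive array by 1.20, 0.56, 0.02, 0.17, -0.79 and -0.26 in that order. Without the 4 arrays whose records note a double amplification, 1 of the 6 genes was called, Tmie (1.74). Tmie lost its call in 7 of 12 fits with 1 array left out, those without TCR single-positive replicate 1 or 3, TCR double-positive replicate 2 or 3, TCR:HEL single-positive replicate 2 or 3 or TCR:HEL double-positive replicate 3. With the mean of both probe sets Rflnb had 0.27 and was not called.

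Taken by mouse, the steps differed in size. In TCR cells the step from double- to single-positive was 2.52 for Tmie, 1.64 for Als2cl, 2.62 for Chd7, 1.63 for Mn1, 2.52 for Rflnb and 0.83 for Cpm, with a median of 2.08 against 0.05 over all probe sets kept. In TCR:HEL cells it was -0.10 (SE 0.45), 0.62 (SE 0.29), 0.70 (SE 0.56), 0.39 (SE 0.31), 0.00 (SE 0.42) and -0.37 (SE 0.26), with a median of 0.19 against 0.03. Both steps use the single-positive arrays that chose the genes, so these are descriptions with no test. In Als2cl and Mn1 the TCR:HEL single-positive arrays were all above the TCR:HEL double-positive arrays, for Mn1 narrowly (79.3 against 76.4). In Tmie, Chd7, Rflnb and Cpm these groups overlapped. The share of all probe sets with such a gap was not counted, so the split is no trait of these genes.

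**Figure D3:**
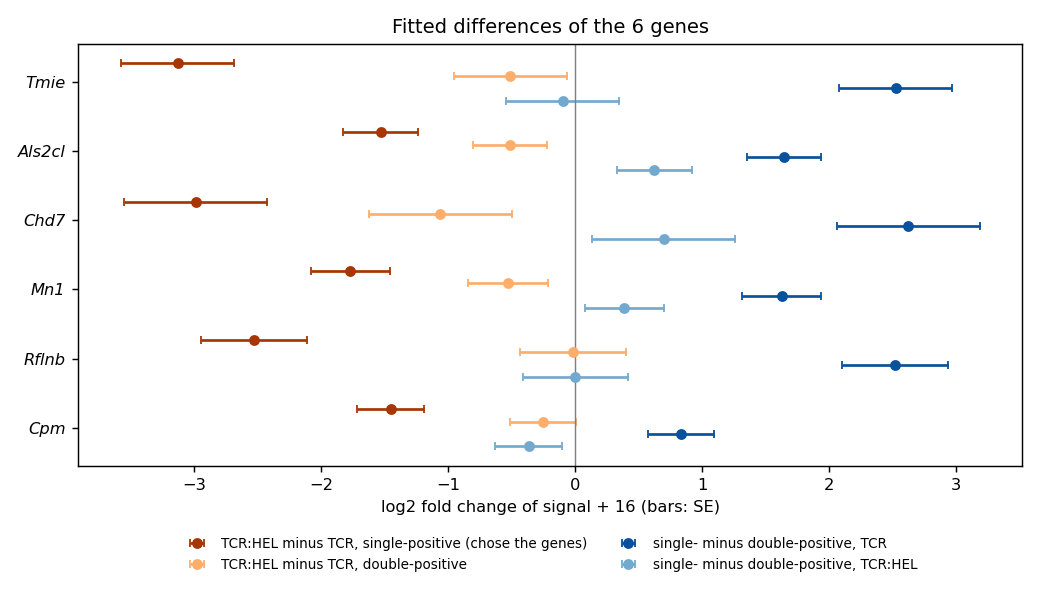
Fitted log2 fold changes of the 6 genes with bars of 1 SE, 1 row per gene and 1 colour per comparison. The TCR stage step runs from 0.83 to 2.62, the TCR:HEL stage step lies between -0.37 and 0.70, and the double-positive antigen difference between -1.06 and -0.01.

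Genes related to the 6 by family or function were counted to see whether they moved with them. Of the other chromodomain helicase genes 6 were measured and 0 were called between the single-positive groups, with a median log2 fold change of 0.20. Chd3, of the NuRD complex, had -0.78, and Chd8 and Chd9, of the same subfamily as Chd7, had 0.03 and 0.70, so the family had no common direction. Of 7 measured genes of complexes that work with Chd7, 0 were called and 6 were negative (median -0.32), among them the methyltransferase gene Kmt2d at -0.77. In the stage average 1 of these 7 was called, the BAF subunit gene Smarcc1, which fell (-1.21, limma adjusted p = 0.0207).

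Refilin A, encoded by Rflna, is the paralog of refilin B and had -0.35 between the single-positive groups, and of 9 measured filamins and filamin partners 0 were called (median -0.07). In the stage average 2 of the 9 rose, against 209 of all 6663 genes, namely Filip1l (1.12, limma adjusted p = 0.00801), which encodes a filamin-interacting protein, and Micall1 (1.05, 0.00475), which encodes an endosomal adaptor. Of 18 listed hair cell mechanotransduction genes the array annotation named 7 alone on a probe set. Of these only Tmc7, Tmc8 and Whrn passed the filter, with log2 fold changes of -0.09, -0.19 and -0.05 between the single-positive groups. Their signals were 166 ± 26.1, 691 ± 199.6 and 295 ± 60.7 in TCR single-positive cells (SD, n = 3), and 0 were called there, between the double-positive groups or in the stage average.

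Of 9 measured genes of the Rab5 system, to which Als2cl belongs, 0 were called between the single-positive groups (median -0.21). The 2 lowest were the Rab5 exchange factor relatives Rinl (-1.13, SE 0.40) and Rin3 (-0.98, SE 0.28), and Rin3 rose in the stage average (0.68, limma adjusted p = 0.0497). Of 7 measured genes listed for Mn1, mostly coactivators of the retinoid receptors, with which Mn1 works, 0 were called in either comparison. Their median was -0.01 between the single-positive groups. Of 4 measured carboxypeptidase genes 0 were called (median -0.10). Of 9 listed receptors for the peptides that Cpm trims, 4 were on the array and 0 were measured after the filter. Over the 6663 genes measured, 12 were called higher and 7 lower between the single-positive groups, and the median was 0.00.

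The list of maturation and egress genes, without the 6, had 41 members, of which 20 were on the array and 17 were measured. None was called between the single-positive groups, 13 were negative and the median was -0.40. Gimap7 had -1.62, the schlafen gene Slfn5 -1.04, Gimap6 -1.01 and the TGF-beta coreceptor gene Tgfbr3 -0.99. The 4 positive members were Itga4 (0.63), St8sia6 (0.48), Satb1 (0.22) and Gimap5 (0.06). In the stage average 209 of all 6663 genes were called higher and 389 lower. There 7 of the 17 rose, among them Bach2 (3.00), Tgfbr3 (2.03), Slfn5 (1.61), St8sia6 (1.60) and Gimap7 (1.59). The other 10 were not called, and 4 of the 17 had negative values. Of 9 measured genes of the double-positive stage 6 fell in the stage average, among them the coreceptor gene Cd8a (-2.92) and Dgkeos (-2.54), and 0 were called between the single-positive groups (median 0.51). The called markers of both stages thus ran in the direction of the labels, while Cd4 was not measured. Rag1, Rag2, Ptcra and Cd8b1, planned as markers of sorting, were not among the 9 measured double-positive stage genes.

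**Figure D4:**
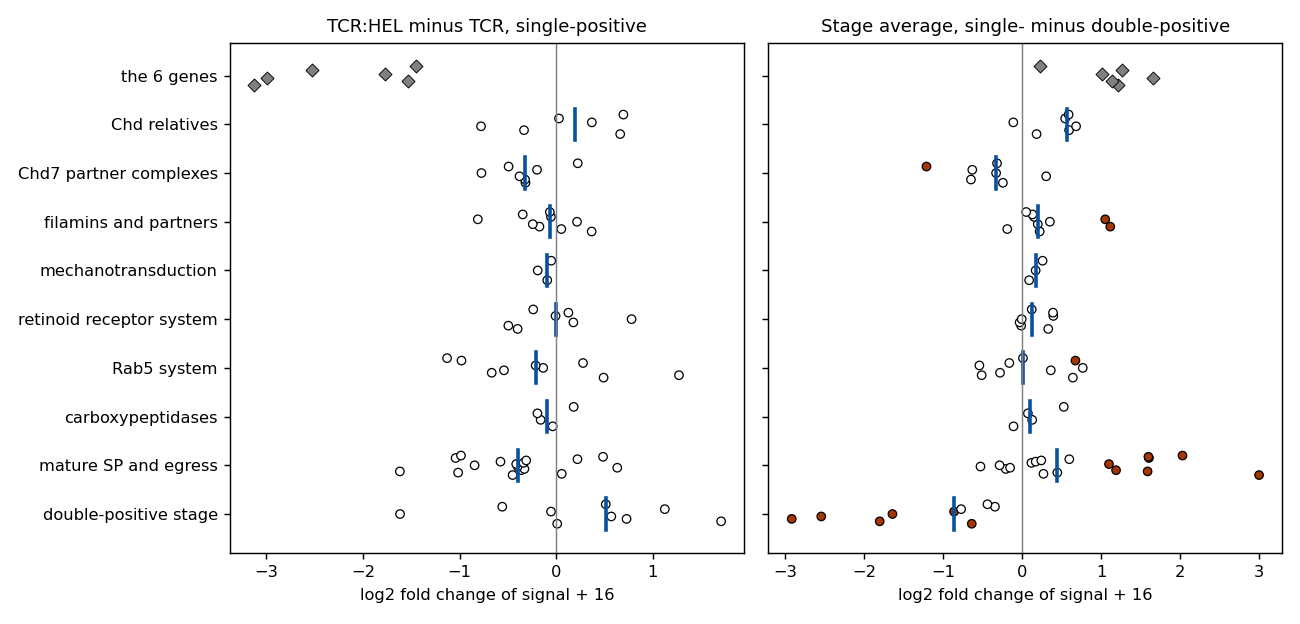
Log2 fold changes of the 6 genes (grey diamonds) and of each related list (circles, filled where called, with a blue bar at the list's median), for the antigen difference (TCR:HEL minus TCR, single-positive) at left and for the stage average at right. No gene of the lists shown is called at left, and the called genes at right lie mostly among mature single-positive and double-positive stage genes.

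Markers of other cells moved with the single-positive groups in some lists. Of 8 measured regulatory T cell genes 3 were called higher in TCR:HEL single-positive cells, Niban1 (2.51), Ikzf2 (2.40) and Arhgap20 (2.16), where 12 of all 6663 genes were. Gpr83 had -0.55, Capg -0.17, Ikzf4 0.12, Nrp1 0.16 and Itgae 1.15. The list was chosen with earlier results of these data known, so these counts support no test. The list's summed signal, of which Ikzf2 was the largest part in TCR:HEL single-positive cells (1168 in TCR and 6197 in TCR:HEL), was 3254 to 4266 in TCR and 9532 to 11220 in TCR:HEL single-positive arrays. It was 3464 to 3845 and 3636 to 5028 in the double-positive groups, and Foxp3, which defines these cells, was not measured. Ikzf2 averaged 2185 in TCR and 2554 in TCR:HEL double-positive cells, above its mean in TCR single-positive cells. Nrp1 averaged 545 and 654 there, against 182 and 203 in the single-positive groups. In the stage average 5 of the 8 genes were called higher and 1, Nrp1, lower. What share of these signals came from regulatory T cells was not tested. Of 3 measured markers of thymic epithelium and stroma 0 were called, and their sum, mostly Epcam, was 2226 to 3942 in TCR and 1271 to 1835 in TCR:HEL single-positive arrays, so it ran in the direction of the 6 genes. In double-positive arrays that sum was 695 to 2242 in TCR and 1359 to 3157 in TCR:HEL mice, where the 6 genes were low. The double-positive stage genes summed to 3445 to 5067 in TCR and 4963 to 6793 in TCR:HEL single-positive arrays, against 10953 to 16136 in double-positive arrays. The part of these cells in the values of the 6 genes was not tested. B cell markers (5 measured) and myeloid markers (3 measured) overlapped between the single-positive groups, at 419 to 603 and 530 to 721 for B cells and 517 to 668 and 490 to 692 for myeloid cells. Between the double-positive groups the B cell sums did not overlap, at 523 to 596 in TCR and 862 to 1387 in TCR:HEL mice, with all 5 markers positive, led by H2-DMb2 (1.81) and Fcmr (1.26), and 0 called. The part of B cells in the double-positive values of the 6 genes was not tested.

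Genes beside the 6 on their chromosomes were examined up to 5 places away in RefSeq order. Apart from Tmie and Als2cl, which neighbour each other, 9 neighbours were measured and 0 were called between the single-positive groups. Lrrc2 (0.51) and Prss44 (0.66), on the sides of the Tmie and Als2cl pair, were positive. Near Chd7, a gene with a clone-type name had -0.88. Near Mn1, Ttc28 had 0.70 and Pitpnb -0.33, and near Cpm, Mdm2 had 0.09 and Slc35e3 0.18. Near Rflnb, Rph3al, which encodes a Rab effector of secretion, had -1.15 (limma adjusted p = 0.364) and Tlcd3a -0.52. Of these genes Pitpnb was called lower in the stage average (-0.84, limma adjusted p = 0.0314), opposite to Mn1.

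**Figure D5:**
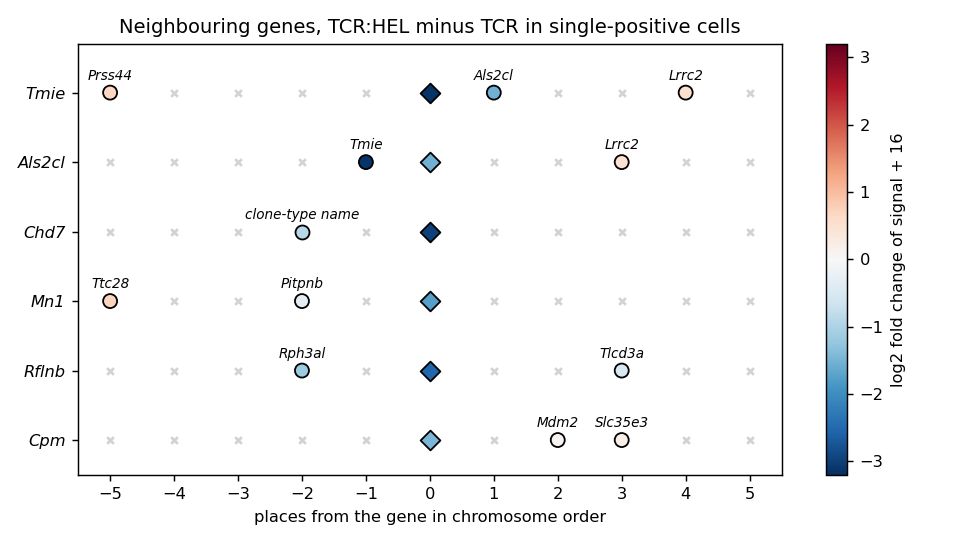
Genes up to 5 places from each of the 6 genes (diamonds) in chromosome order (horizontal axis), coloured by log2 fold change between the single-positive groups, with crosses for genes that were not measured. Tmie and Als2cl are both blue, and the other measured neighbours lie between -1.15 and 0.70.

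The 6 genes had similar profiles by choice, with Pearson correlations between pairs from 0.707 for Als2cl with Cpm to 0.885 for Tmie with Cpm, over 12 arrays that fall into 4 groups. Among 5757 other genes the profiles most like the mean of the 6 were those of Pde3b (r = 0.921), Shc2 (0.918), Acvrl1 (0.905), Dipk1a (0.898), Gimap7 (0.897), Wee2 (0.885), Treml2 (0.871) and Zfyve28 (0.863). Pde3b, which encodes a phosphodiesterase for cyclic AMP, averaged 4944 in TCR single-positive, 2147 in TCR:HEL single-positive, 1841 in TCR double-positive and 1817 in TCR:HEL double-positive cells, with the same highest group. The most opposite profiles were those of the ATP receptor gene P2rx7 (-0.904), Septin11 (-0.897), the centromere motor gene Cenpe (-0.882) and Dis3l (-0.880).

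Single genes differed in their nearest profiles. Tmie was most like Tmem164 (r = 0.881), Als2cl most like Gimap7 (0.942), Chd7 most like Wee2 (0.951), Mn1 most like the receptor gene Acvrl1 (0.889), Rflnb most like the adaptor gene Shc2 (0.898) and Cpm most like Rab6b (0.859). Pde3b was among the 3 nearest genes of Tmie, Als2cl, Mn1 and Rflnb. The nearest genes of Chd7 included Sting1 (0.913), which encodes the adaptor of the cytosolic DNA sensing pathway, while Wee2 and Shc2 were weak, with mean signals of 82.0 and 83.6 in TCR single-positive cells, their highest group. All of these correlations rest on the same arrays, of which the 3 TCR single-positive ones weigh most, and they are descriptions.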

How the data were processed

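Intensity values were taken as the authors deposited them, as MAS5 signals per the submitters' processing notes, which give neither version nor settings, and the 2% trimmed mean was 150 on every array. Of 22575 probe sets, 64 controls were removed, and 13703 with a signal above the array's median on at least 3 of 12 arrays were kept. By the platform annotation 9319 had 1 symbol, 149 had several and 4235 had none, and 1036 carried clone-type names, which were counted and not named. Symbols were checked against RefSeq genes of GRCm38.p6.

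Values were analysed as log2(signal + 16) with limma 3.58.1 in R 4.3.3, with 4 group means and empirical Bayes moderation with a trend (degrees of freedom 8 residual, 7.01 prior). P-values were two-sided, with Benjamini-Hochberg adjustment over all probe sets kept, and the code was tested on simulated data. A gene's leading probe set was the one with the highest mean log2 signal. Named genes were the 6 genes, the 3 genes most like each, the 8 most and 4 least like their mean, called or smallest-p members of each list, neighbours within 5 places, and the 3 genes just outside the threshold. Chd3, Chd8, Chd9, Kmt2d, Rflna, the mechanotransduction genes, Rinl, Epcam, Gpr83, Capg, Ikzf4, Nrp1, Itgae, H2-DMb2 and Fcmr were named after their values were seen. So were Itga4, St8sia6, Satb1, Gimap5 and Gimap6. The 6 genes and all lists were chosen with earlier results of these data known.

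Groups came from the titles. The arrays were of 1 chip lot and hybridized on 8 days, in 3 periods parted by over 35 days. Between single-positive groups, arrays with the same replicate number deviated together (r = 0.159, 0.204 and 0.188). Those of replicates 1 and 3 shared a hybridization day, and those of replicate 2 did not. Deviations from a group's mean cancel within the group, so the value of replicate 2 follows in part from the others and is no separate support. The numbers were read as pairs there from the data and those days, and the pair of replicate 2 has no support of its own. The main fit held no replicate term, so its SEs and calls ignore this pairing, which entered only the replicate block. Only the difference between the double-positive groups was tested for the 6 genes, and the stage average, planned as a test, is given for them as a description. P-values measure the spread between the arrays of a group, whose number, 3, limits the precision. Alternatives covered the pseudocount, the filter, the normalization, the replicate block, the period, single arrays and probe sets.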

Additional observations from a re-analysis of the deposited data

Results flagged for a closer look

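One result came from a probe set that the filter on low signal had kept out of the comparisons. The Tmie probe set 1443964_at had a mean signal of 145.7 in TCR single-positive cells, with 101, 46.0 and 290 on the 3 arrays. It had 5.98 to 12.7 on the other 9 arrays. The 3 TCR single-positive arrays thus stood alone, as they did for the leading Tmie probe set, and they took part in choosing Tmie. The value of 46.0, from replicate 2, lay below the median of its array, 68.5. The remaining Tmie probe set, 1439838_a_at, did not show the pattern and stayed under the median of every array. Its single-positive mean was higher with antigen (32.2) than without (18.6). How many of the probe sets that failed the filter have such a gap was not counted.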

How the results depend on the processing

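The median difference of the 6 genes between the single-positive groups was -2.15. It was -2.32 with a pseudocount of 1, with either period term (gaps over 35 or 30 days) and without the 4 arrays recorded as doubly amplified, -1.76 with a pseudocount of 64, -1.65 with the mean of a gene's probe sets, and -2.32 to -2.07 with 1 array left out. All 6 genes stayed negative in all 26 alternatives. In double-positive cells 0 of the 6 were called in any of the 26. Rflnb ran there from -0.32 to 0.77, the last without the doubly amplified arrays, and the other 5 stayed negative. In the stage average 5 genes were called, 1 with either period term, 3 without the 3 arrays of low Gapdh ratio, 1 without the doubly amplified arrays, and 4 to 5 with 1 array left out. The cause was not tested, although calls over all probe sets fell as well, from 418 higher and 564 lower to 184 and 309 with the period term for gaps over 35 days and to 117 and 193 without the doubly amplified arrays. With the term for gaps over 30 days Chd7 alone was called (2.03), and with that for gaps over 35 days Als2cl alone. The median stage step in TCR was 2.08. It was 1.78 with a pseudocount of 64, 1.90 and 1.84 with the period terms for gaps over 35 and 30 days, 1.91 without the doubly amplified arrays, 1.63 with the mean of a gene's probe sets, and 1.88 to 2.16 with 1 array left out. In TCR:HEL it was 0.19, 0.00120 with either period term, and 0.194 to 0.405 with 1 array left out. With the replicate block the median between the single-positive groups was -2.15 and 0 genes were called in double-positive cells and 5 in the stage average, as without it. Over all probe sets the replicate block gave 33 higher and 14 lower between the single-positive groups, where 20 and 10 were called without it. Same-numbered double-positive arrays did not deviate together (r = -0.0770, 0.125 and -0.0911). Leaving out the doubly amplified arrays, and all alternatives for the stage steps within each mouse, were chosen after seeing the data.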
